A study of Drosophila melanogaster with 3 samples.

Results

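The genes described here encode the translation factors of Drosophila melanogaster, the proteins that start, extend and end protein synthesis on the ribosome. They were taken as the protein-coding genes whose symbol begins with eIF, eEF or eRF followed by a digit, and 53 of the 13945 protein-coding genes of the 6 major chromosome arms (2L, 2R, 3L, 3R, 4, X) met this rule. Chromatin immunoprecipitation and sequencing (ChIP-seq) had been carried out on whole embryos aged 8 to 24 hours from a transgenic strain, sr-GFP, in which the product of sr, the transcription factor Stripe, is made as a fusion with eGFP. The labels describe an immunoprecipitation of GFP, although their antibody entry reads sr. The 3 libraries are labelled as biological replicates 1, 2 and 3 of this single group, and neither an untagged strain nor another stage was analysed here. Whether a peak depends on the fusion protein was therefore not tested, and in whole embryos the cells that carry a peak cannot be named.

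Initiation factors bring the initiator tRNA, the small ribosomal subunit and the capped mRNA together, elongation factors deliver aminoacyl-tRNAs and move the ribosome along the mRNA, and release factors free the finished protein at a stop codon. Most of these genes are active in nearly all cells. Stripe is a zinc finger protein of the EGR type that directs tendon cell differentiation in the fly embryo, and proteins of this type recognise a GC-rich core, searched here as GTGGGCG or GTGGGTG on both strands. Promoters of broadly expressed fly genes often carry the DNA replication-related element (DRE, TATCGATA), and many translation genes start at a pyrimidine-rich initiator called TCT, searched as TCTTTC or TCTTTT or CCTTTC or CCTTTT on the strand of the gene with its C at most 10 bp from the transcription start site (TSS).

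Promoters at 4 conservative summits counted for members are shown first, to let the starts and motifs described further on be read as letters. They were picked after their values were seen: the first 3 lie under peaks thresholded in all libraries, and the peak at eIF3a was thresholded in replicates 2 and 3. Of the other members thresholded in all libraries, which are not shown, eIF6 had a DRE within 100 bp of its summit, and eIF3h and eEF1alpha1 had none. The sequences are from the RefSeq genome, Release 6, whose coordinates equal those of the dm6 assembly used by the authors. Each is written 5′ to 3′ on the strand of the gene whose start is nearest to the summit, with any DRE and TCT in capitals, and each ends 20 bases after that start. The eEF1gamma window is chr3R:29220072-29220192 on the plus strand. The window of Ugalt, whose start is the nearest to the summit counted for eIF2Bbeta, is chrX:2703832-2703952 on the minus strand. The window of RpL28, the neighbour of eIF1, is chr3L:3222940-3223060 on the minus strand, and that of eIF3a, which faces CG1074, is chr3R:4433875-4433985 on the minus strand.
eEF1gamma: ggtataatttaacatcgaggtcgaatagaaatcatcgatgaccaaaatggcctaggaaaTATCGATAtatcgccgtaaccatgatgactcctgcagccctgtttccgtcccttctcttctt
Ugalt and eIF2Bbeta: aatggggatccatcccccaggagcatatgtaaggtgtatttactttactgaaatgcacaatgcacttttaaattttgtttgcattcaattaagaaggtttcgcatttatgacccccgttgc
RpL28 and eIF1: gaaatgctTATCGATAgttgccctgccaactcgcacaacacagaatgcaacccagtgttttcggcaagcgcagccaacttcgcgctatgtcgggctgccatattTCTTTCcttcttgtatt
eIF3a and CG1074: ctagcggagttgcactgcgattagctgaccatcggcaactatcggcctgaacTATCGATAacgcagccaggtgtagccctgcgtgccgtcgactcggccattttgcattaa
In eEF1gamma the DRE starts 41 bp before the TSS, and its centre is 20 bp from the summit. In eIF3a the DRE starts 38 bp before the TSS, and its centre is 2 bp from the summit. In RpL28 the DRE is 92 bp before the TSS and 65 bp from the summit, and the C of the TCT is 5 bp after the annotated start. The Ugalt window, at the second highest peak of the whole conservative list, holds neither of these motifs, and none of the 4 windows holds the EGR core.

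The EGR core itself lay within 100 bp of a conservative summit at 4 members, each with the letters GTGGGTG, shown in capitals in a window of 30 bases on the strand that carries them. The windows are chr3L:9401902-9401931 (minus), chrX:1923243-1923272 (minus), chr3R:18275189-18275218 (plus) and chr3R:23818034-23818063 (plus).
eIF4E1: cgcgcgtgtgtGTGGGTGtgttcttcttta
eIF2Bepsilon: cctccatcaagGTGGGTGtatcgcacacac
eIF1A: gcttgcgttgaGTGGGTGcccctctctaag
eIF4G2: agttggagtgtGTGGGTGctgctctaaatg
The centre of the core was 8 bp from the summit in eIF1A, 25 bp in eIF2Bepsilon, 27 bp in eIF4E1 and 33 bp in eIF4G2. These summits were not at the starts themselves: that of eIF1A lay in an intron 497 bp after the TSS, that of eIF4G2 in an intron 804 bp after it, that of eIF2Bepsilon 409 bp before it, and that of eIF4E1 139 bp before the nearest start of the gene, inside the 5′ UTR of a transcript that begins further upstream.

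Peaks were read from 3 kinds of deposited list. The ranked list of each library holds 81528, 89928 and 88129 peaks in replicates 1, 2 and 3, and the thresholded list holds 2754, 1683 and 3013 of them. Every thresholded peak had an irreproducible discovery rate (IDR), which is low where a peak keeps its rank between 2 sets of reads, of 0.01 or less, but not every ranked peak at that rate was kept, since 2857, 1760 and 3121 ranked peaks reached it. The conservative series list holds 4044 peaks, all of them in the ranked series list whose paired peaks come from replicates 1 and 3, so replicate 2 took no part in that pairing. Signal values are the authors' own, and their normalization is not stated, and sequencing depth is unknown. As a check of the target, 7 of 8 tendon genes fixed for it had a conservative summit within 1000 bp of a TSS, sr, Tsp and slow among them. Of 6 muscle genes fixed beside them, 4 had one as well (66.7%), and 3 were thresholded in every library, so the check does not set tendon genes apart from muscle genes.

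Of the translation factor genes, 14 of 53 had a conservative summit within 1000 bp of a TSS, which is 26.4% (Wilson 95% interval 16.4 to 39.6, for counting error only) beside 15.2% of all protein-coding genes. They were eIF1, eIF1A, eIF2Bbeta, eIF2Bepsilon, eIF3a, eIF3h, eIF3j, eIF4E1, eIF4EHP, eIF4G2 and eIF6 of initiation, and eEF1alpha1, eEF1gamma and eEF5 of elongation. In the thresholded lists the members numbered 12 in replicate 1, 9 in replicate 2 and 13 in replicate 3, or 22.6%, 17% and 24.5%, beside 10.8%, 6.9% and 12.4% of all genes. Replicate 2, with the shortest list, gave the fewest members as it gave the fewest genes.

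In all 3 thresholded lists together, 6 members were found, or 11.3% (interval 5.29 to 22.6) beside 5.28% of all genes. They were eIF1, eIF2Bbeta, eIF3h, eIF6, eEF1alpha1 and eEF1gamma. With the ranked lists and an IDR of 0.05 or less in every library the count was 8, or 15.1% (interval 7.85 to 27.1) beside 7.3% of all genes, since eIF2Bepsilon and eIF4EHP joined them. The ranked lists without a limit set few genes apart: 44, 40 and 45 members (83%, 75.5% and 84.9%) had a ranked summit in replicates 1, 2 and 3, beside 79.2%, 78.1% and 81.1% of all genes, and 37 members, or 69.8%, had one in every library beside 63.1%. The design has no second group, so these shares were described and not tested.

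**Figure D1:**
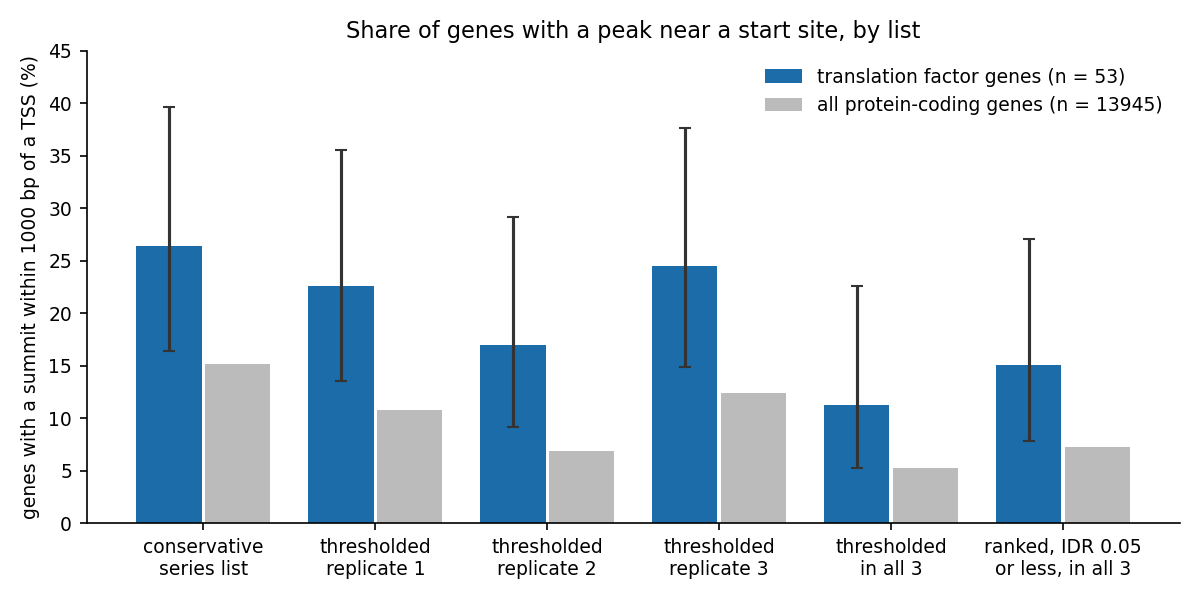
Share of genes with a summit within 1000 bp of a TSS (y axis, %) for the conservative and thresholded lists and for ranked peaks of IDR 0.05 or less, for the translation factor genes (blue, Wilson 95% intervals) and all protein-coding genes (grey). The blue bar is the higher of each pair plotted, 26.4% against 15.2% in the conservative list, and its interval is wide with 53 genes.

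The highest peak counted for any member was at eIF2Bbeta, which encodes a regulatory subunit of eIF2B, the exchange factor that recharges eIF2 with GTP. Its signal was 320.3, 282.4 and 533.3 in replicates 1, 2 and 3, a mean of 378.7 ± 135.2 (SD, n = 3). It ranked 4, 3 and 1 among the thresholded peaks of the 3 libraries on these arms, and 2 of 4041 in the conservative list. The summit, at position 2703889 of chromosome X, lay 682 bp before the eIF2Bbeta start but only 37 bp before a start of Ugalt, the UDP-galactose transporter gene. This peak is therefore counted for eIF2Bbeta by the distance rule and sits at the promoter of its neighbour. A second eIF2B gene, eIF2Bepsilon, the catalytic subunit, had signals of 56.68, 57.86 and 44.31, and the first 2 passed the threshold. Its summit lay in the 5′ UTR of Ocrl, a phosphoinositide phosphatase gene, 302 bp after the Ocrl start. The remaining eIF2B genes, eIF2Balpha, eIF2Bgamma and eIF2Bdelta, had ranked peaks in all libraries but none of them in a thresholded or the conservative list, and neither had eIF2alpha, eIF2beta or eIF2gamma, the subunits of eIF2 that carries the initiator tRNA. For eIF2gamma replicate 1 came close, with a best signal of 34.78 and a lowest IDR of 0.01135 within 1000 bp of a TSS. Replicate 2 had no ranked peak in that range.

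Among the factors that act on the scanning small subunit and on subunit joining, eIF1, eIF1A and eIF6 had conservative summits. The gene of eIF6, which keeps the large subunit from joining too early and takes part in its assembly, had signals of 124.8, 137.1 and 259.4 (173.8 ± 74.4, SD, n = 3), and its peak ranked 68 of 4041. The summit lay 98 bp before the eIF6 start, within an intron of ytr. At eIF1, which guards start codon choice, the signals were 66.4, 61.89 and 101.3 (76.5 ± 21.6, SD, n = 3) with a rank of 564, but the summit lay 357 bp before the eIF1 start and 24 bp before that of RpL28, a ribosomal protein gene. At eIF1A, its partner on the small subunit, the intronic summit had 50.51, 20.58 and 56.24, above the threshold in replicates 1 and 3, with an IDR of 0.2387 in replicate 2. Replicate 1 held another thresholded peak 735 bp after the eIF1A start, with a signal of 3.14. The genes of eIF5, the GTPase activator of eIF2, and of eIF5B, which joins the subunits, were in neither kind of thresholded list, although eIF5B had an IDR of 0.022 in replicate 3.

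**Figure D2:**
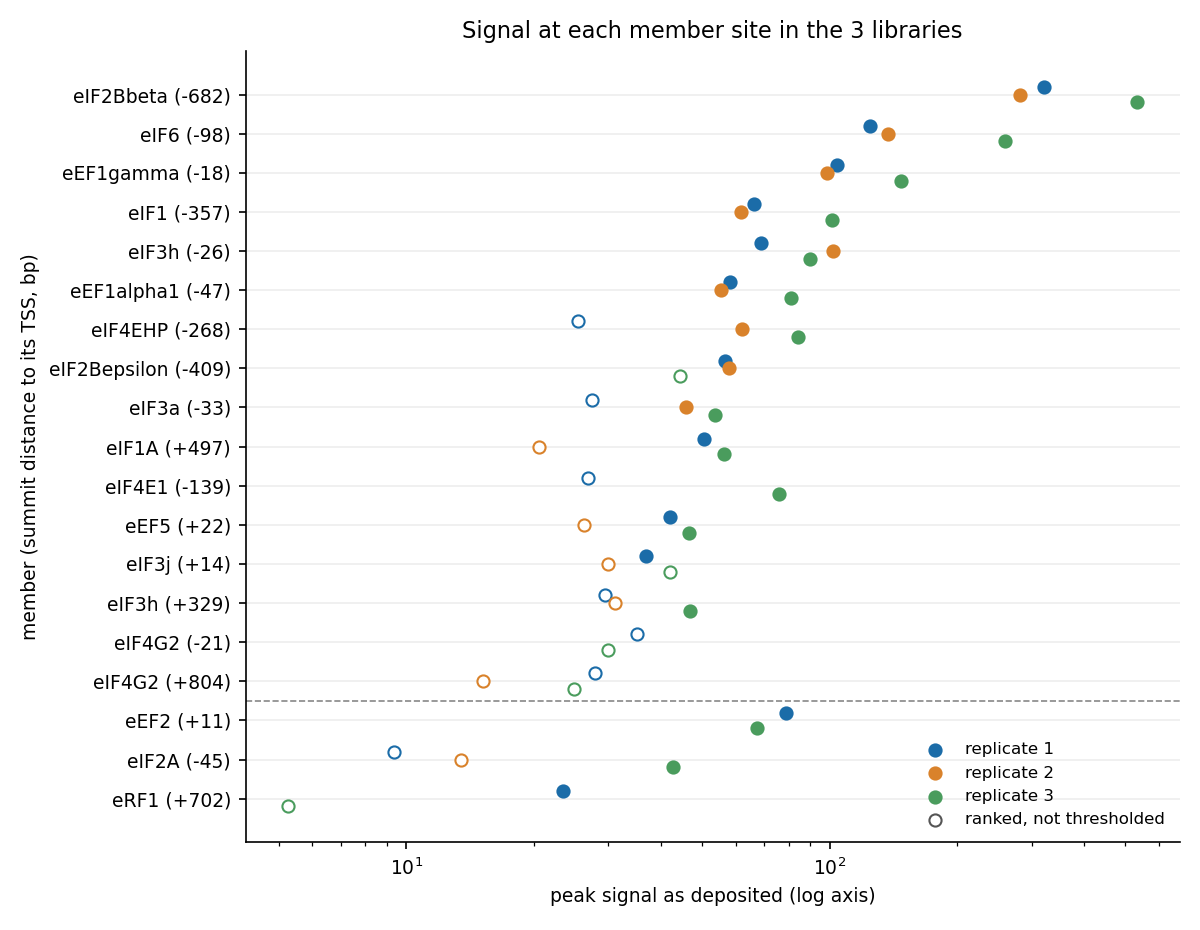
Peak signal as deposited (log x axis) at the sites of members in the 3 libraries, with filled points for thresholded peaks and open points for peaks only in the ranked list. Rows below the dashed line are not in the conservative list. The replicate 1 peak 735 bp after the eIF1A start, with a signal of 3.14, is not drawn. At eIF2Bbeta the signal runs from 282.4 to 533.3, and eIF4G2 has no filled point.

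The eIF3 complex, the large scaffold that binds the small subunit, has 16 genes under the rule. Of these, 3 had a conservative summit (18.8%, interval 6.59 to 43.0), beside 15.2% of all genes. The gene of the h subunit had signals of 69.06, 102.0 and 89.98 (87.0 ± 16.7, SD, n = 3) and a rank of 628, with the summit 26 bp before one of its starts and 37 bp before the start of senju on the other strand. A further summit in an eIF3h intron, 329 bp after that start, had 29.45, 31.11 and 46.88 and was thresholded in replicate 3 only. At eIF3a, the core subunit, the signals were 27.42, 45.68 and 53.68, thresholded in replicates 2 and 3, between starts 33 bp away for eIF3a and 37 bp away for CG1074. At eIF3j, a loosely bound subunit, the signals were 36.92, 29.97 and 41.88, and only the peak of replicate 1 passed the threshold although replicate 3 had the higher value. The other 13 eIF3 genes, the paralogs eIF3d2, eIF3f2 and eIF3g2 included, had no thresholded or conservative summit. The lowest IDR among these 13 was 0.01257, at eIF3f1 in replicate 3.

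The eIF4 factors recruit the capped mRNA, and 3 of 13 had a conservative summit (23.1%, interval 8.18 to 50.3), beside 15.2% of all genes. None of the 13 was thresholded in every library (interval 0.0 to 22.8), beside 5.28% of all genes. With 13 genes, that count cannot set the family apart. The cap-binding protein gene eIF4E1 had a signal of 26.93 in replicate 1 and 75.83 in replicate 3. In replicate 2 its starts lay in a stretch of 16196 bp without a ranked peak, and the nearest one was 5674 bp from a start. The place of eIF4E1 in the conservative list thus rests on replicates 1 and 3, and the IDR in replicate 1 alone was 0.1939. The gene of eIF4EHP, a cap-binding protein that represses translation, had 25.4, 62.2 and 84.3, thresholded in replicates 2 and 3, and its summit was 268 bp before its own start and 108 bp before that of CG18428. The gene of eIF4G2, a scaffold paralog known in the fly for its role in male germ cells, had 2 conservative summits but was in no thresholded list. The one 21 bp before the start had 35.04 in replicate 1 and 29.93 in replicate 3, with no ranked peak in replicate 2, and the intronic one with the EGR core had 27.88, 15.17 and 24.86. The start of eIF4G2 is shared with CG33111. The 5 paralogs eIF4E3, eIF4E4, eIF4E5, eIF4E6 and eIF4E7 had best signals of 17.3 or less. The RNA helicase gene eIF4A had best signals of 30.53, 22.14 and 15.51, and its lowest IDR was 0.0205, in replicate 1.

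In the conservative list, 3 of 7 elongation genes were called (42.9%, interval 15.8 to 75.0) and 11 of 44 initiation genes (25.0%, interval 14.6 to 39.4). Termination had 0 of 2 (interval 0.0 to 65.8), and the share of all genes was 15.2%. The intervals of the roles overlap widely. The gene of eEF1gamma, a subunit of the exchange complex for eEF1alpha, had signals of 104.2, 98.8 and 147.5 (116.8 ± 26.7, SD, n = 3) and a rank of 201, and its summit lay 18 bp before its start with no other protein-coding start within 1000 bp. The gene eEF1alpha1, which encodes the GTPase that delivers aminoacyl-tRNA, had 58.07, 55.43 and 80.89 (64.8 ± 14, SD, n = 3) at a summit 47 bp before one of its 4 starts, in an intron of a longer transcript. At its paralog eEF1alpha2 the best signals were 15.22, 16.77 and 16.67, none of them thresholded. The gene of eEF5, also known as eIF5A, which helps the ribosome through difficult peptide bonds, had 41.9, 26.27 and 46.6 at a summit 22 bp after its start, thresholded in replicates 1 and 3. The exchange factor genes eEF1beta and eEF1delta were in neither kind of thresholded list.

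The translocase gene eEF2 was thresholded in 2 libraries without being in the conservative list. It had a signal of 79.06 in replicate 1, at a summit 11 bp after its start (position 21682105 of 2L), and of 67.53 in replicate 3, yet neither the conservative list nor any other series list used here holds it. In replicate 2 the lists used here hold no ranked peak between 21595369 and 21700314 of 2L, a stretch of 104945 bp. Of the release factors, eRF1, which reads stop codons, had 23.51 in replicate 1 at an intronic summit 702 bp after its start and was thresholded there only. At the same place replicate 3 had 5.26 with an IDR of 0.8867, and replicate 2 had no ranked peak. The best signal of replicate 2 within 1000 bp of an eRF1 start was 33.76, and the lowest IDR there was 0.2804. The GTPase partner of eRF1, eRF3, was not thresholded, with best signals of 25.63, 28.74 and 33.28. The third member outside the conservative list but thresholded in a library was eIF2A, an alternative initiator tRNA carrier, with 9.34, 13.49 and 42.59 and a threshold passed in replicate 3 only.

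Every member has thus been placed. Of the 14 in the conservative list, 6 were thresholded in all 3 libraries, 5 in 2, 2 in 1 and 1 in none. A further 3 were thresholded but not conservative. Of the other 36, 30 had a ranked summit in at least 1 library and 22 had one in all 3. Their best signals ran from 3.1 to 34.8 in replicate 1 (median 16.4), from 5.5 to 28.7 in replicate 2 (median 13.1) and from 4.79 to 44.1 in replicate 3 (median 16.1). The medians over all peaks of the thresholded lists were 53.3, 52.6 and 56.3.

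**Figure D3:**
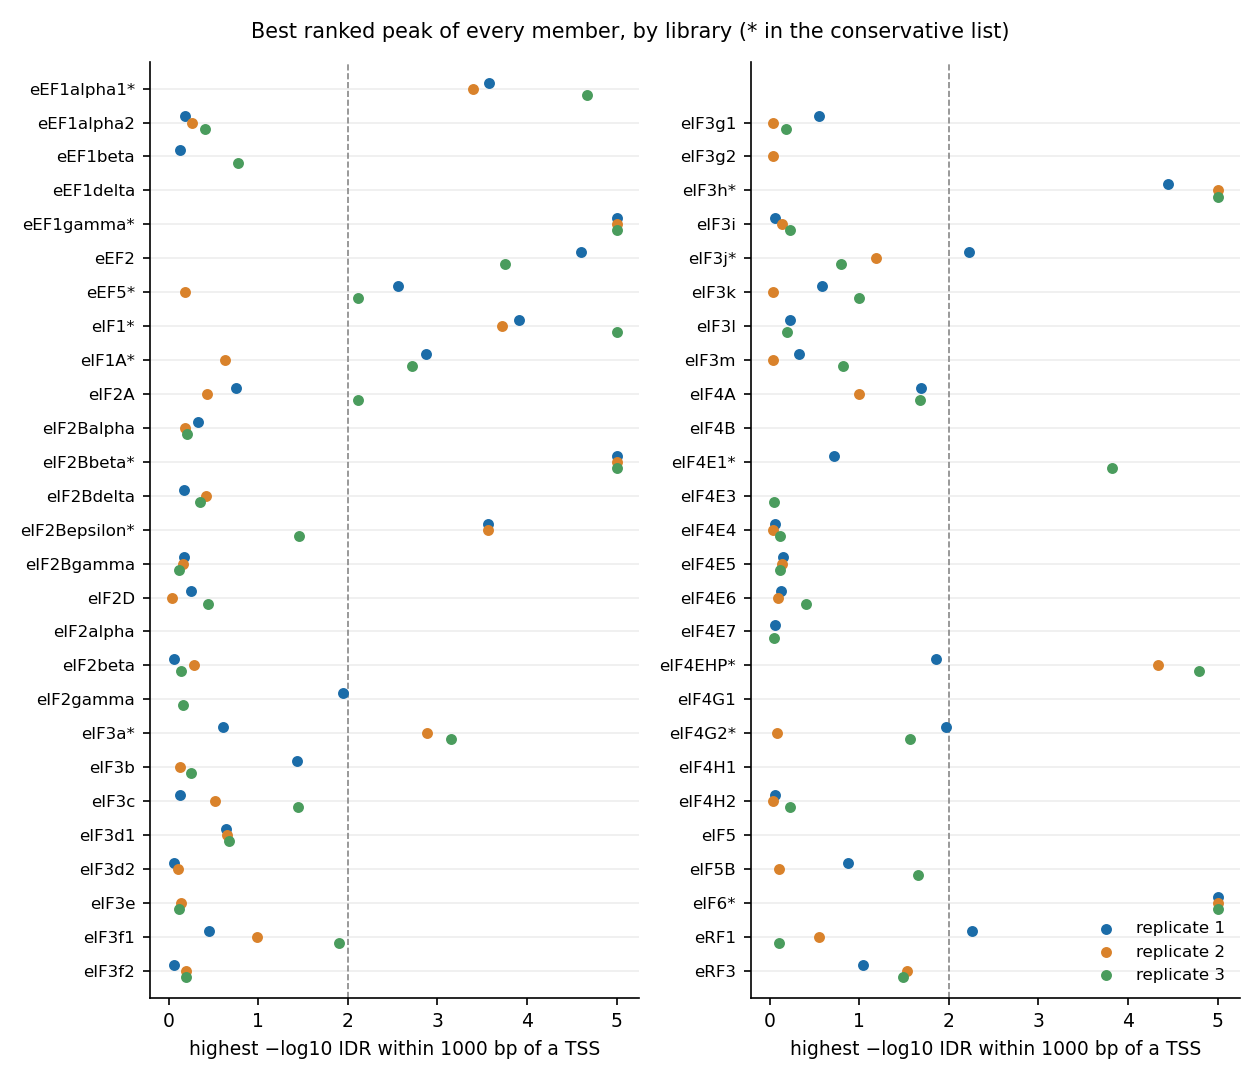
Highest −log10 IDR of any ranked peak within 1000 bp of a TSS (x axis, ceiling of 5) for each of the 53 members and each library; the dashed line marks an IDR of 0.01, and a member without a point in a colour has no ranked peak in that library. For eIF2Bbeta, eIF6 and eEF1gamma all 3 libraries are at the ceiling, while 6 members have no point.

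The remaining 6 members, eEF1delta, eIF2alpha, eIF4B, eIF4G1, eIF4H1 and eIF5, had no ranked summit within 1000 bp of a TSS in any library. That is 11.3% of members beside 7.95% of all genes. They lie in longer stretches where the lists used here hold no ranked peak of any library. The stretch around eEF1delta spans 79.5 kb of 2L and holds 24 protein-coding genes, that around eIF5 spans 49.5 kb of X and holds 8, and eIF2alpha and eIF4H1 share one of 52.9 kb on X. The gene of eIF4B, a helper of the helicase, lies in one of 94.6 kb near the inner end of 3L, and that of eIF4G1, the main scaffold, in one of 211.2 kb on chromosome 4. Whole genes inside such stretches of at least 40 kb made up 9.43% of members (5 genes) and 2.21% of all genes. Chromosome 4 had 29, 33 and 28 ranked peaks and 1 thresholded peak in each library, and no conservative peak. Why the lists hold no peak there was not tested.

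Conservative summits of members sat close to the start. The median distance to the nearest TSS of the member was 72.5 bp over the 14 called members and 162 bp over all 2123 called genes. Of the members, 7 of 14 had a summit within 50 bp, beside 21.1% of all called genes, and 9 (64.3%) within 150 bp, beside 48.7%. Starts of other genes were often near too: at 10 of the 14 (71.4%) the start of another protein-coding gene lay within 1000 bp of the summit, beside 50.5% of all called genes. Such genes need not share a promoter, since that start was 674 bp away at eIF6 and 749 bp away at eIF1A. For 10 members (71.4%) the member owned the nearest start, beside 78.3% of all called genes, and the exceptions were eIF1, eIF2Bbeta, eIF2Bepsilon and eIF4EHP. Both of the other-owned peaks present in all 3 thresholded lists, at Ugalt and RpL28, drop from the group under the nearest-start rule. That leaves 4 of 53 members (7.55%) in all libraries, beside 4.01% of all genes.

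**Figure D4:**
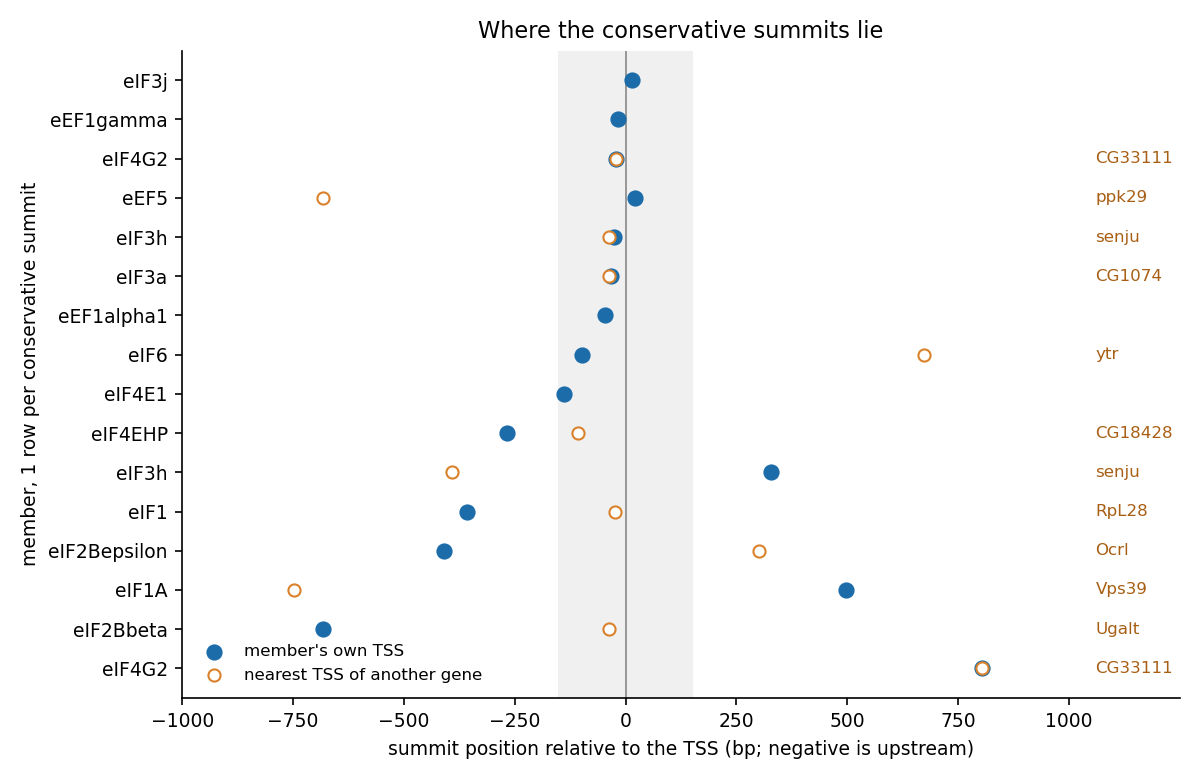
Position of each conservative summit of a member relative to its own TSS (filled) and to the nearest TSS of another protein-coding gene (open, named at the right); x axis in bp, grey band within 150 bp. At eIF1 and eIF2Bbeta the open point lies near 0 (24 and 37 bp) and the filled one at 357 and 682 bp.

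The EGR core lay within 100 bp of 4 of 16 member summits (25.0%) and of 30.4% of all 1997 conservative summits within 1000 bp of a protein-coding start. Of the 12 member summits within 150 bp of any protein-coding start, 1 had the core (8.33%), beside 19.7% of all summits that near. Of the 4 further out 3 had it, beside 40.6%. In the promoters, taken from 250 bp before to 50 bp after the start of the canonical transcript, none of the 53 members had the core, beside 6.12% of 13944 promoters.

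Other motifs of the panel were counted in the same promoters. A DRE was found in 15 of 53 (28.3%), beside 8.94% of all promoters, and a TCT in 9 (17%), beside 2.88%. The recorded TCT matches had their C from 4 to 10 bp away from the annotated start and none at it. The GAGA motif, spelled GAGAG, was found in 7 (13.2%), beside 30.3%. The M1BP core (GGTCACAC) was in 6 (11.3%), beside 7.54%, and the E-box (CACGTG) in 4 (7.55%), beside 4.29%. All but TCT were searched on both strands, and no motif of the panel contains another. The DRE was in 5 of the 14 called members (35.7%), namely eEF1gamma, eIF1A, eIF2Bbeta, eIF3a and eIF6. It was also in 10 of the 39 not called (25.6%), so called and uncalled members both carried it. Called members need not have a peak in this window. The summit counted for eIF2Bbeta lay 682 bp before its start and that of eIF1A 497 bp after it. At the summits themselves, a DRE lay within 100 bp of 4 of 16 (25.0%), those counted for eEF1gamma, eIF1, eIF3a and eIF6, beside 3.46% of all summits near starts. These 2 shares were not matched for distance. Within 150 bp of a protein-coding start lay 12 of the 16 member summits and 972 of all 1997. The TCT was in 2 of the called members, eEF5 and eIF1A, and in 7 of those not called. These are matches of letters and not measured binding of any factor.

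**Figure D5:**
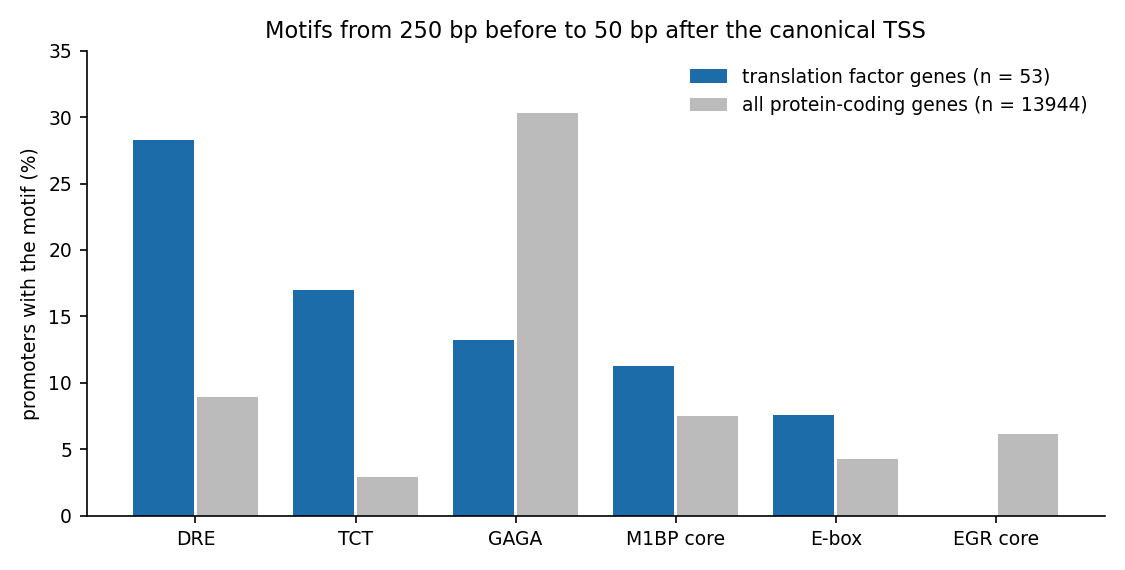
Share of promoters with each motif (y axis, %) for the translation factor genes (blue) and all protein-coding genes (grey). DRE and TCT are higher among translation factor genes (28.3% and 17%), and GAGA is lower (13.2% against 30.3%). No member has the EGR core in this window, which covers the start of the canonical transcript only.

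Other genes of translation were counted by the same rule. The 92 cytoplasmic ribosomal protein genes, an additional list, had 59 members in the conservative list (64.1%, interval 53.9 to 73.2), beside 15.2% of all genes. In every library 31 were thresholded (33.7%, interval 24.9 to 43.8), beside 5.28% of all genes. Both shares were above those of the translation factor genes. Of the 18 cytoplasmic aminoacyl-tRNA synthetase genes, which charge tRNAs, 3 had a conservative summit (16.7%, interval 5.84 to 39.2), near the 15.2% of all genes. GluProRS had a series signal of 214 and was thresholded in all 3 libraries, but the nearest start, 112 bp away, is that of AP-1sigma, a clathrin adaptor gene. IleRS had a series signal of 109, 64 bp before its start, and AsnRS had 74.5, 39 bp before its start, with no thresholded peak. Of the 15 mitochondrial synthetase genes only LeuRS-m had one (6.67%, interval 1.19 to 29.8), beside the same 15.2%. It lay 838 bp before the LeuRS-m start and nearer to Dhc64C, the dynein heavy chain gene.

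Of the 19 genes of translational control, 4 had a conservative summit (21.1%, interval 8.51 to 43.3), beside 15.2% of all genes, a share inside that interval. Thor, the inhibitor that binds eIF4E, had a series signal of 190 at a summit 39 bp before its start, thresholded in all 3 libraries. The poly(A)-binding protein gene pAbp had 144 at 515 bp after its start, and Gcn2, a kinase of eIF2alpha, had 193, both also thresholded in all libraries, although at Gcn2 the start of Ugt35D1 was nearer, at 99 bp. The kinase gene S6k had 65.3, thresholded in 1 library, at a summit 228 bp after its start that was the only one of the 8 in these lists with the EGR core.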

How the data were processed

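Peak lists of 3 ChIP-seq libraries of sr-GFP embryos were used. Per the deposited text notes, the lists were made on dm6 from each library's alignment, or from all 3 alignments for series lists, with 1 control file. Which aligner and caller were used is not given in the sources used here. The authors deposited a signal per peak, with no stated normalization, a score that is a scaled IDR, and in ranked lists the −log10 of the global IDR, with a ceiling of 5. Read totals are not given, so depth is unknown and the list lengths and Wilson 95% intervals limit precision, for counting error only.

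Genes and starts came from Ensembl release 115 (BDGP6), whose arm lengths fit the peaks, and sequences from the RefSeq Release 6 genome. A gene was called in a list when a summit lay within 1000 bp of any TSS of its transcripts. Values at a site are those of the highest ranked peak within 150 bp of the summit. For other members, the best signal and the lowest IDR within 1000 bp of a TSS were taken separately and may belong to different peaks. Counts were set beside all protein-coding genes and not tested. Named genes were all members in the conservative or a thresholded list, the 3 others with the lowest IDR, those with no ranked summit, called genes of the 2 further lists, and neighbours owning the nearest start; other members with values were named after their values were seen. Members, lists and motifs were chosen with earlier results of these data known. Tor was matched as mTor. Of the intervals of the ranked series list behind the conservative list, 68.7% and 67.6% were identical to peaks of replicates 1 and 3. The counting was tested on simulated data. Python 3.11.15, pandas 2.3.3, numpy 2.4.6, scipy 1.17.1 and matplotlib 3.10.9 were used.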

Additional observations from a re-analysis of the deposited data

How the results depend on the processing

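The conservative count of 14 members stayed within 1.5 times under all 10 alternatives. It ran from 10 (nearest start required, or the 50% of peaks with the highest signal) to 18 (the longest series list). The share of all genes moved with the setting too, from 8.45% (the 50% of peaks with the highest signal) to 19.3% (2000 bp). At those settings 18.9% and 32.1% of members were called. At 500 bp the members lost eIF2Bbeta, and at 2000 bp they gained eIF2Bgamma, eIF3b and eIF3d1. Restricting to genes with a ranked peak within 20000 bp in every library, an alternative chosen after seeing the data, gave 14 of 50 members (28.0%) beside 15.8% of all genes. The count thresholded in every library, 6, ran from 4 to 6 under its other alternatives and from 7 to 9 with a replicate left out. The count at an IDR of 0.05 or less, 8, became 37 with no limit (69.8%, beside 63.1% of all genes). With a replicate left out it ran from 8 to 13 (15.1% to 24.5%, beside 7.89% to 11.3% of all genes). The highest count was without replicate 2, and the cause was not tested. The count of called members with the EGR core, 4, became 9 with the first 6 letters alone, a shorter motif. Translational control genes with a summit numbered 7 of 19, against 4, at 2000 bp (36.8%) beside 19.3% of all genes. No paired analysis was possible because there is 1 group. Unknown depth leaves a missing peak, as at eEF2 in replicate 2, without a limit of detection.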
